A study of Homo sapiens with 8 samples.

Results

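AP-1 is a family of transcription factors, and 9 of its genes were followed across all 8 libraries of a MEPCE knockdown experiment in U2OS cells, a human osteosarcoma line. The members were chosen by name as FOS, FOSB, FOSL1, FOSL2, JUN, JUNB, JUND, ATF3 and BATF3, and all 9 were found among the 80311 genes counted. Total RNA was sequenced in 4 groups of 2 libraries. The study used 2 derivatives of U2OS. The AsiSI line, named U2OS- AiD-DiVA AsiSI -ER in the labels, carries the restriction enzyme AsiSI fused to an oestrogen receptor domain, so that 4-hydroxytamoxifen (4-OHT) lets it cut DNA. The Flp-In line, U2OS-Flp-In-TREx, is a derivative made for inserting genes at one site. AsiSI cells with siMePCE, an siRNA against the 7SK RNA capping enzyme MEPCE, were set against AsiSI cells with the control siRNA siNC. Flp-In cells with siMePCE were likewise set against Flp-In cells with siNC. Each group was transfected with its siRNA in rounds at 0 and 48 h and lysed at 96 h. Both AsiSI groups, siNC included, received 300 nM 4-OHT at 92 h for 4 h. For the Flp-In groups no 4-OHT is stated, and the effects of line and of 4-OHT cannot be told apart. The labels do not say whether a line is 1 clone, or whether replicates came from separate cultures. P-values therefore measure the spread between these libraries, which may be technical.

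AP-1 proteins bind DNA as pairs through a basic leucine zipper. JUN-type proteins pair with each other or with FOS-type proteins, whereas FOS-type proteins need a JUN-type partner, and ATF3 and BATF3 are relatives that also pair with JUN-type proteins. FOS, FOSB, JUN, JUNB and ATF3 are classic early response genes, induced quickly by growth factors or stress. MEPCE caps and stabilises 7SK RNA, which holds the elongation factor P-TEFb in an inactive complex.

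The labels were checked on the targeted gene. MEPCE had 3.65 and 2.30 CPM (counts scaled by TMM and by library size) in AsiSI siMePCE libraries, against 29.3 and 29.3 CPM in AsiSI siNC libraries. It had 5.35 and 4.84 CPM in Flp-In siMePCE libraries, against 39.9 and 40.1 CPM in Flp-In siNC libraries. RN7SK, the gene of 7SK RNA, fell by 2.30 on the log2 scale in AsiSI cells and fell by 2.31 in Flp-In cells. Overlapping rows held 1.08 times the counts of MEPCE and 1.00 times those of RN7SK. Library totals lay between 41431776 and 53695626 counts. Mitochondrial genes took 8.24 to 10.6% of counts in siMePCE libraries and 5.23 to 5.91% in siNC libraries. Without mitochondrial, 7SK, 7SL and ribosomal RNA genes, as many AP-1 members passed the test in each direction of each comparison. Of the osteosarcoma lineage markers, RUNX2 lay at 30.1 to 44.6 CPM, SPARC at 255 to 493 CPM and VIM at 582 to 1300 CPM. COL1A2 and ALPL reached at most 0.811 and 1.29 CPM. The blood markers CD3E and CD14 had at most 0.207 CPM and PTPRC at most 7.50 CPM, the epithelial markers at most 6.64 CPM and the endothelial marker CDH5 at most 1.89 CPM. Of the neural markers, MAP2 had 17.7 to 133 CPM, RBFOX3 19.8 to 28.6 CPM and GFAP 0.931 to 3.61 CPM. MAP2 rose with siMePCE by 1.23 on the log2 scale in AsiSI cells and 0.69 in Flp-In cells, whereas GFAP fell by 0.99 and fell by 1.75. The part of these markers in the member changes was not tested.

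RefSeq promoter sequences were matched for 7 of the 9 members, and 4 are shown here because these genes gave opposite results. FOS, FOSB and JUNB were higher after MEPCE knockdown in both lines, whereas JUND was lower. The windows of ATF3, which was also higher in both lines, and of JUN, which was also lower, are not shown. The windows shown were thus picked by result and do not link letters to direction. Each run holds the 250 bases before the RefSeq start, 5′ to 3′ on the gene's strand, in build GRCh38.p14. FOS lies at chr14:75278578-75278827 on the plus strand, FOSB at chr19:45467746-45467995 on the plus strand, JUNB at chr19:12791236-12791485 on the plus strand and JUND at chr19:18281623-18281872 on the minus strand. Capitals mark every match, on either strand, to TGACG (the core of the cAMP response element), to the full element TGACGTCA, to CCAAT and to TATAAA.
FOS: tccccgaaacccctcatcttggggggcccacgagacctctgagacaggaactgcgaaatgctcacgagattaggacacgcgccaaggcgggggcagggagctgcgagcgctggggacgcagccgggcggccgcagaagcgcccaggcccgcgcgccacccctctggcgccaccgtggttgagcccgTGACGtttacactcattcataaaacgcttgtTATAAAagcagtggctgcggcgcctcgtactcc
FOSB: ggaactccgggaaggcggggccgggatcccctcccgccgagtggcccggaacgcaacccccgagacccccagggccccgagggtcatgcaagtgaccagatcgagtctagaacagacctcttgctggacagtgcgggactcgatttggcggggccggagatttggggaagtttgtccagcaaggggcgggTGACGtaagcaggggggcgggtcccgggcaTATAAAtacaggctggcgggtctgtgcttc
JUNB: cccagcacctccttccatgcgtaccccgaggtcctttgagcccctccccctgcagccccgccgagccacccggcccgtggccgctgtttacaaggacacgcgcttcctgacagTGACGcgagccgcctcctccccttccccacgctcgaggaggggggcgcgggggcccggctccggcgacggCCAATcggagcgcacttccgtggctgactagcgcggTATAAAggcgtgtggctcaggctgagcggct
JUND: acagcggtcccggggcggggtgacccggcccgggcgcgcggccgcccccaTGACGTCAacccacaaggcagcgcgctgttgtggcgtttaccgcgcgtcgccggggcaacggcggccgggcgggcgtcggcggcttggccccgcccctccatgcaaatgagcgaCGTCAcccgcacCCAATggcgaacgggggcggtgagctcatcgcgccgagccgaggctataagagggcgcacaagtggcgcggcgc
TATAAA was present in the windows of FOS, FOSB and JUNB, beginning at positions −33, −30 and −31 relative to the start, and farther out at −230 from the second of the ATF3 starts. It was present in 10.7% of all 35116 windows. The JUND window held no exact TATAAA, but it held the similar letters TATAAG near its end. Near matches were not searched for in any window. The full element TGACGTCA was found in the JUND window, beginning at position −200, in no other member window, and in 1.65% of all windows. The core TGACG is part of the full element and was found in windows of 6 members, against 21.2% of all windows. CCAAT was present in the windows of JUNB, JUND, JUN and ATF3 and in 32.0% of all windows. The AP-1 element TGACTCA and the serum response CArG box were in no member window, against 4.20% and 1.16% of all windows. Sites farther than 250 bases before the start, or after it, were outside the search. A member without a match may therefore still have the element. These matches describe letters in a short window and were not tested for binding.

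Counts were fitted across 43321 genes with edgeR's quasi-likelihood test, and a gene was called where its Benjamini-Hochberg adjusted p was under 0.05. In AsiSI cells 7 members were called with siMePCE, 4 higher and 3 lower, where 38.1% of all genes were called, 16.8% higher and 21.3% lower. In Flp-In cells 6 members were called, 4 higher and 2 lower, where 40.8% of all genes were called, 18.1% higher and 22.7% lower. The share called was larger among the 26438 genes with a mean of at least 1 CPM, which include all 9 members. Of these genes 7603 were higher and 7326 lower in AsiSI cells, and 7650 higher and 8187 lower in Flp-In cells. The member counts were the same with that filter. This also bears on the shares given for the gene lists below. The same 4 genes rose in both lines, namely FOS, FOSB, JUNB and ATF3. JUN and JUND fell in both lines, FOSL2 fell in AsiSI cells, and FOSL1 and BATF3 passed the test in neither line. The median log2 fold change of the 9 members was 0.07 in each line, against 0.04 over all genes in AsiSI cells and 0.03 in Flp-In cells. The 2 lines do not share libraries in these comparisons, but their spread was estimated together. The share of all genes called in the same direction in both lines was not computed. In bulk RNA, fewer cells that express a gene and less RNA per cell cannot be told apart.

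**Figure D1:**
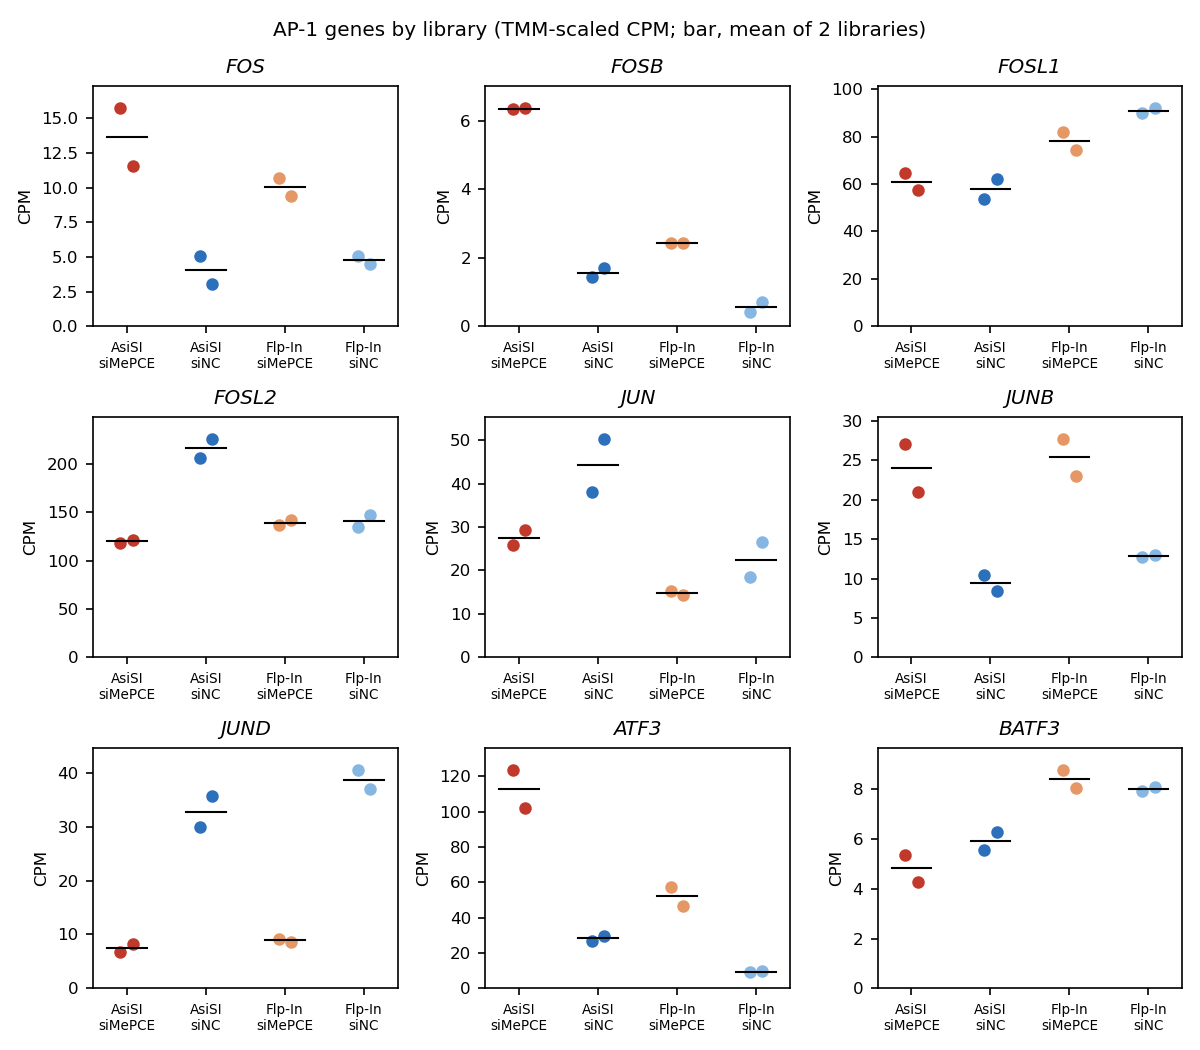
Level of each AP-1 gene in each library, as TMM-scaled CPM on a linear axis from 0, with points for the 2 libraries of a group and a bar for their mean. FOS, FOSB, JUNB and ATF3 were higher in every siMePCE library than in every siNC library of the same line, and JUND and JUN were lower in every one. The share of all genes whose libraries separate in this way was not computed, here or for the genes described below.

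JUND, the JUN-type gene usually found at high levels in unstimulated cells, showed the largest decrease of any member. Its level was 6.67 and 8.17 CPM in AsiSI siMePCE libraries, against 29.9 and 35.6 CPM in AsiSI siNC libraries. In Flp-In cells it was 9.18 and 8.62 CPM with siMePCE, against 40.6 and 36.9 CPM with siNC. All 4 siMePCE libraries were below all 4 siNC libraries. JUND was 4.42-fold lower in AsiSI cells (log2 fold change −2.14, SE 0.137, adjusted p = 1.825e-10) and 4.35-fold lower in Flp-In cells (−2.12, SE 0.135, adjusted p = 1.506e-10). The difference between the lines was −0.02 (SE 0.187, adjusted p = 0.972). JUND has 1 exon, and its counted interval lies at 18390504 to 18392432 on the minus strand of chromosome 19 in hg19. A row on the opposite strand, ENSG00000299858, covers 352 of these bases with 0.281 times the counts of JUND. It fell by 1.93 in AsiSI cells and fell by 2.07 in Flp-In cells on the log2 scale. Reads of the gene and of this row cannot be told apart.

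JUNB, a JUN-type early response gene, moved in the other direction. JUNB had 27.1 and 21.0 CPM in AsiSI siMePCE libraries, against 10.4 and 8.48 CPM in AsiSI siNC libraries. It had 27.8 and 23.0 CPM in Flp-In siMePCE libraries, against 12.7 and 13.0 CPM in Flp-In siNC libraries. Every siMePCE library was above every siNC library. The log2 fold change was 1.35 in AsiSI cells (SE 0.149, adjusted p = 3.486e-07) and 0.98 in Flp-In cells (SE 0.147, adjusted p = 1.579e-05). JUNB has 1 exon at 12902300 to 12904129 on the plus strand of chromosome 19 in hg19, and this interval lies inside HOOK2, a gene of the opposite strand with 2.84 times its counts. HOOK2 was called higher in neither line, and its log2 fold change was −0.20 in AsiSI cells (adjusted p = 0.137) and −0.41 in Flp-In cells (adjusted p = 0.00352). Without the first AsiSI siMePCE library the AsiSI value was −0.35 (adjusted p = 0.0351), and without the second Flp-In siMePCE library the Flp-In value was −0.32 (adjusted p = 0.0761). JUNB counts equalled 56.6 and 52.2% of those of HOOK2 in AsiSI siMePCE libraries, against 20.9 and 16.4% in AsiSI siNC libraries. They equalled 55.1 and 52.8% in Flp-In siMePCE libraries, against 20.9 and 20.1% in Flp-In siNC libraries. Taking JUNB off HOOK2 left 921 and 857 counts in AsiSI siMePCE libraries, against 1892 and 2277 counts in AsiSI siNC libraries.

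JUN, which encodes c-Jun, fell to a lesser extent than JUND. It had 25.7 and 29.2 CPM in AsiSI siMePCE libraries, against 38.1 and 50.3 CPM in AsiSI siNC libraries. It had 15.3 and 14.4 CPM in Flp-In siMePCE libraries, against 18.4 and 26.6 CPM in Flp-In siNC libraries. The groups did not overlap within either line, but the siNC libraries of each line differed widely between themselves. JUN fell by 0.69 on the log2 scale in AsiSI cells (SE 0.150, adjusted p = 0.000997) and fell by 0.60 in Flp-In cells (SE 0.156, adjusted p = 0.00386). Without the second Flp-In siNC library the Flp-In value was −0.32, with an adjusted p of 0.159. The JUN row covers 59242517 to 59249720 on the minus strand of chromosome 1 in hg19, which is 7204 bases, whereas its GENCODE 29 transcript has 1 exon of 3540 bases.

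JUNB was the largest part of the JUN-type transcripts with siMePCE, and JUND with siNC. Levels were divided by the length of the counted interval, so that they can be compared between genes, and each gene was taken as a share of the sum of JUN, JUNB and JUND. JUND made up 15.8 and 21.4% of this sum in AsiSI siMePCE libraries, against 58.5 and 61.4% in AsiSI siNC libraries. In Flp-In cells its share was 21.6 and 23.5% with siMePCE, against 68.9 and 64.0% with siNC. JUNB made up 67.8 and 58.1% in AsiSI siMePCE libraries, against 21.5 and 15.4% in AsiSI siNC libraries. Its share was 68.8 and 66.1% in Flp-In siMePCE libraries, against 22.7 and 23.7% in Flp-In siNC libraries. JUN made up 16.4 and 20.5% in AsiSI siMePCE libraries, against 19.9 and 23.2% in AsiSI siNC libraries, and 9.62 and 10.5% in Flp-In siMePCE libraries, against 8.37 and 12.3% in Flp-In siNC libraries. JUNB was the largest share in all 4 siMePCE libraries and JUND in all 4 siNC libraries. Per length of the spliced transcript, JUND made up 13.9 and 18.1% in AsiSI siMePCE libraries, against 49.4 and 50.4% in AsiSI siNC libraries. On that scale it made up 20.1 and 21.7% in Flp-In siMePCE libraries, against 64.2 and 57.5% in Flp-In siNC libraries. On the spliced scale JUN took more than JUND in both AsiSI siMePCE libraries (28.3 and 34.1%), and more than JUNB in both AsiSI siNC libraries (33.0 and 37.4%, where JUNB had 17.6 and 12.3%). The sum itself was 21.8 and 19.8 CPM per kb of interval in AsiSI siMePCE libraries, against 26.5 and 30.1 in AsiSI siNC libraries, and 22.1 and 19.0 in Flp-In siMePCE libraries, against 30.5 and 29.9 in Flp-In siNC libraries. These shares were not tested and follow from the 3 fold changes above.

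**Figure D2:**
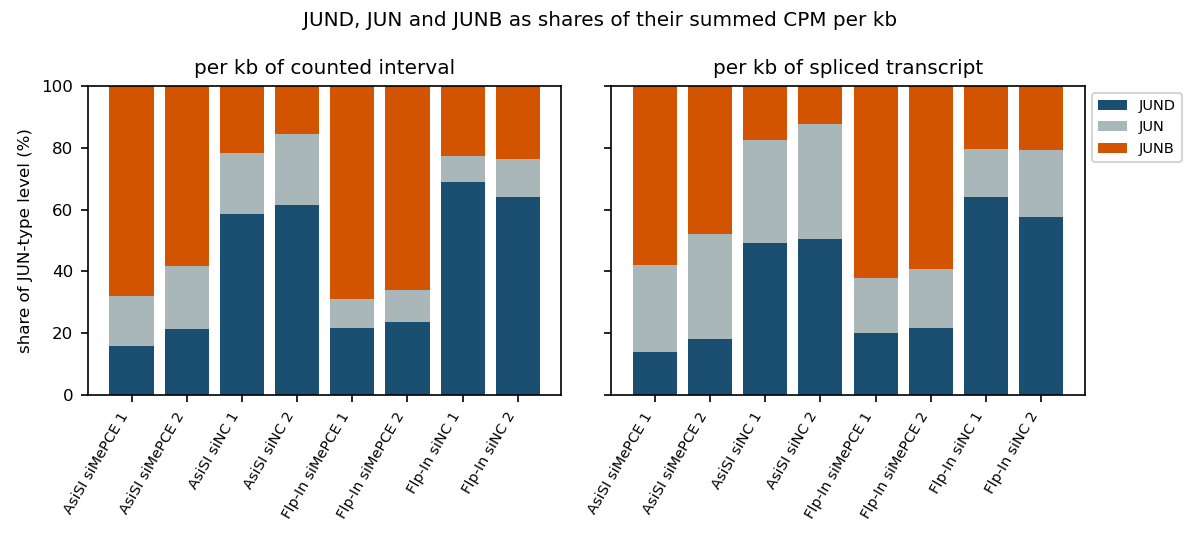
JUND, JUN and JUNB as percent of their summed CPM per kb in each of the 8 libraries, per kb of counted interval (left) and of spliced transcript (right), with bars from 0 to 100%. On the interval scale JUND took 15.8 to 23.5% in siMePCE libraries and 58.5 to 68.9% in siNC libraries.

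Among the FOS-type genes, FOS and FOSB rose in both lines. FOS, the early response gene that encodes c-Fos, had 15.7 and 11.5 CPM in AsiSI siMePCE libraries, against 5.04 and 3.08 CPM in AsiSI siNC libraries. It had 10.7 and 9.39 CPM in Flp-In siMePCE libraries, against 5.08 and 4.50 CPM in Flp-In siNC libraries. The lowest siMePCE library was above the highest siNC library. FOS was 3.37-fold higher in AsiSI cells (log2 fold change 1.75, SE 0.206, adjusted p = 8.211e-07) and 2.09-fold higher in Flp-In cells (1.06, SE 0.206, adjusted p = 0.0002825). The difference between the lines, 0.69 (SE 0.289), had an adjusted p of 0.207, and without the first AsiSI siNC library it was 1.08, with an adjusted p of 0.0416. FOS lies at 75745529 to 75749893 on the plus strand of chromosome 14 in hg19. Its first 701 bases overlap a row of the opposite strand, ENSG00000258740, which held 0.383 times its counts and rose by 1.52 in AsiSI cells and 1.31 in Flp-In cells.

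FOSB, a close relative of FOS, had between 18 and 283 counts in a library. FOSB had 6.33 and 6.37 CPM in AsiSI siMePCE libraries, against 1.44 and 1.69 CPM in AsiSI siNC libraries. It had 2.43 and 2.42 CPM in Flp-In siMePCE libraries, against 0.420 and 0.718 CPM in Flp-In siNC libraries. Each siMePCE pair was above the siNC pair of its line, and the Flp-In siMePCE pair was also above the AsiSI siNC pair. The log2 fold change was 2.02 in AsiSI cells (SE 0.240, adjusted p = 9.466e-07) and 2.09 in Flp-In cells (SE 0.285, adjusted p = 5.103e-06). The 4-exon FOSB gene lies at 45971253 to 45978437 on the plus strand of chromosome 19 in hg19, inside the DNA repair gene ERCC1 of the opposite strand, which held 14.9 times its counts. ERCC1 fell by 0.81 in AsiSI cells and fell by 0.60 in Flp-In cells on the log2 scale. FOSB counts equalled 18.3 and 17.5% of ERCC1 counts in AsiSI siMePCE libraries, against 2.42 and 2.62% in AsiSI siNC libraries, and 9.43 and 10.2% in Flp-In siMePCE libraries, against 1.15 and 1.85% in Flp-In siNC libraries. The host gene and its nested gene thus moved in opposite directions.

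FOSL2, which encodes Fra-2, was the member whose knockdown effect differed between the lines. FOSL2 had 118 and 122 CPM in AsiSI siMePCE libraries, against 207 and 226 CPM in AsiSI siNC libraries. It had 136 and 142 CPM in Flp-In siMePCE libraries, against 134 and 147 CPM in Flp-In siNC libraries. The AsiSI groups stood apart and the Flp-In groups overlapped. FOSL2 fell by 0.85 on the log2 scale in AsiSI cells (SE 0.0840, adjusted p = 7.598e-08). The value was −0.01 in Flp-In cells (SE 0.0836, adjusted p = 0.914). The test of the difference, AsiSI minus Flp-In, gave −0.84 (SE 0.118, adjusted p = 0.0003117). Among the 9 members 1 was called lower and 0 higher in this difference, where 4.17% of all genes were called, 1.66% lower and 2.51% higher. Of the 26438 genes with a mean of at least 1 CPM, 853 were called lower and 1563 higher in it. At an unadjusted p under 0.05 FOS (0.69) and FOSL1 (0.29) had positive differences, and ATF3 (−0.48) a negative one, but their adjusted p-values were 0.207, 0.271 and 0.119.

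FOSL1, which encodes Fra-1, and BATF3 passed the test in neither line. FOSL1 had 64.7 and 57.3 CPM in AsiSI siMePCE libraries, against 53.8 and 62.1 CPM in AsiSI siNC libraries. It had 81.9 and 74.2 CPM in Flp-In siMePCE libraries, against 89.8 and 92.1 CPM in Flp-In siNC libraries. The AsiSI groups overlapped, with a log2 fold change of 0.07 (SE 0.0986, adjusted p = 0.596). The Flp-In groups did not overlap, with a log2 fold change of −0.22 (SE 0.0979, adjusted p = 0.0778). That value was called when only the 4 Flp-In libraries were fitted (−0.21, adjusted p = 0.0145) and when the second AsiSI siNC library was left out (−0.23, adjusted p = 0.0407).

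The ATF-type members ATF3 and BATF3 are neighbours on chromosome 1, on opposite strands with 65639 bases between their hg19 intervals. ATF3, a stress-induced gene, had 124 and 102 CPM in AsiSI siMePCE libraries, against 27.0 and 29.7 CPM in AsiSI siNC libraries. It had 57.3 and 46.8 CPM in Flp-In siMePCE libraries, against 9.05 and 9.67 CPM in Flp-In siNC libraries. Every siMePCE library was above every siNC library of both lines. ATF3 was 3.98-fold higher in AsiSI cells (log2 fold change 1.99, SE 0.118, adjusted p = 6.094e-11) and 5.57-fold higher in Flp-In cells (2.48, SE 0.126, adjusted p = 7.799e-12). BATF3, known for its role in dendritic cells, had 5.36 and 4.28 CPM in AsiSI siMePCE libraries, against 5.54 and 6.27 CPM in AsiSI siNC libraries. It had 8.78 and 8.05 CPM in Flp-In siMePCE libraries, against 7.93 and 8.09 CPM in Flp-In siNC libraries. Its log2 fold change was −0.29 in AsiSI cells (SE 0.174, adjusted p = 0.196) and 0.07 in Flp-In cells (SE 0.167, adjusted p = 0.763). The 2 neighbours thus gave different results, ATF3 rising in both lines and BATF3 passing the test in neither.

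**Figure D3:**
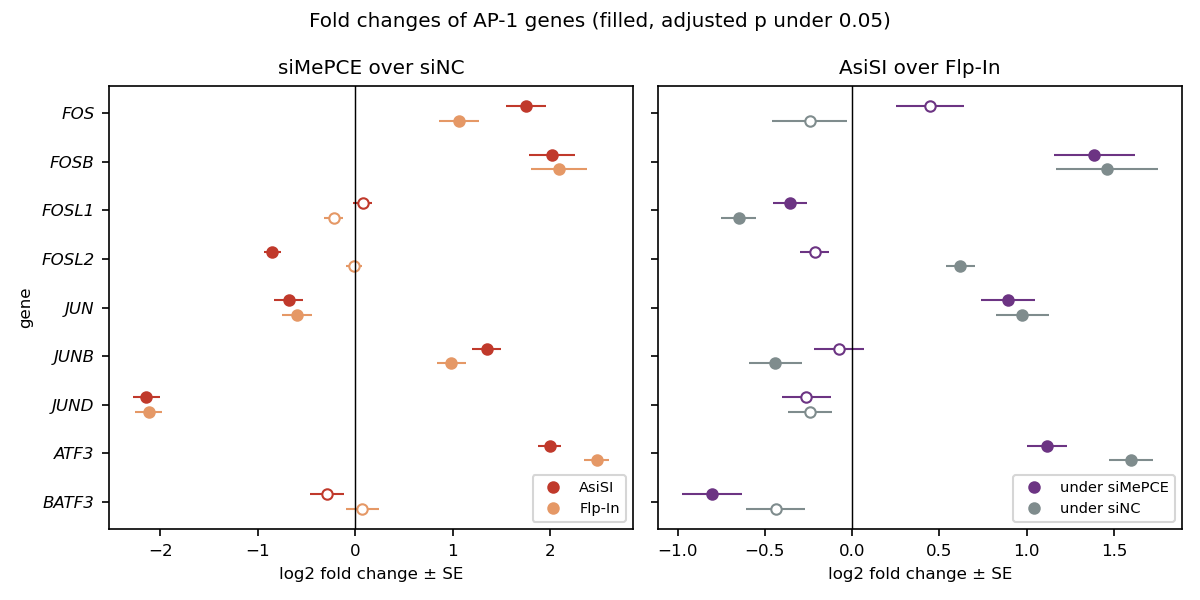
Log2 fold change ± SE of each AP-1 gene for siMePCE over siNC in each line (left) and for AsiSI over Flp-In under each siRNA (right), with filled points at an adjusted p under 0.05. ATF3, FOSB, FOS and JUNB lay right of 0 and JUND and JUN left of 0 in both lines on the left side, where FOSL2 was filled in AsiSI cells alone.

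AsiSI cells with 4-OHT also differed from Flp-In cells under the same siRNA. Under siNC, 4 members were called higher in AsiSI cells and 2 lower, where 29.5% of all genes were called, 14.4% higher and 15.1% lower. Under siMePCE, 3 were called higher and 2 lower, where 31.5% of all genes were called, 15.6% higher and 15.9% lower. With the 26438 genes kept at a mean of at least 1 CPM, 6041 were higher and 6178 lower under siNC. The members were then 4 higher and 3 lower. Under siMePCE 6586 of these genes were higher and 6031 lower, with 4 members higher and 2 lower. Under siNC the log2 fold change of AsiSI over Flp-In was 1.60 for ATF3 (SE 0.126, adjusted p = 3.835e-09), 1.46 for FOSB (adjusted p = 0.000583), 0.98 for JUN (adjusted p = 3.945e-05) and 0.62 for FOSL2 (adjusted p = 7.194e-06). FOSL1 fell by 0.65 (adjusted p = 2.922e-05) and JUNB by 0.44 (adjusted p = 0.0321) in AsiSI relative to Flp-In cells under siNC. Under siMePCE the log2 fold change was 1.39 for FOSB (adjusted p = 8.268e-05), 1.12 for ATF3 (adjusted p = 1.695e-07) and 0.89 for JUN (adjusted p = 0.0001283), whereas FOSL1 was at −0.36 (adjusted p = 0.00813) and BATF3 at −0.80 (adjusted p = 0.00102). ATF3, FOSB and JUN were thus higher in AsiSI cells under either siRNA, and FOSL1 was lower under either. FOS and JUND were called in neither of these comparisons by the fit used here. Under siMePCE FOS (0.44, adjusted p = 0.0905) stayed uncalled in 9 of 15 alternatives and was called in the others. FOSL2 under siMePCE (−0.22, adjusted p = 0.0552) stayed uncalled in 13 of 15. BATF3 under siNC (−0.44, adjusted p = 0.0578) stayed uncalled in 10 of 15, and JUND in all 15 under either siRNA. JUNB lost its call when either Flp-In siNC library or the second AsiSI siNC library was left out (−0.43, −0.39 and −0.28, adjusted p = 0.129, 0.166 and 0.296). FOSL1 under siMePCE lost its call without the first Flp-In siMePCE library (−0.28, adjusted p = 0.116) or the second AsiSI siMePCE library (−0.27, adjusted p = 0.110). These comparisons share their libraries with the knockdown comparisons and are no independent repeat of them.

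Levels per length set the members in an order that depended on the length used. Per kb of counted interval, introns included, JUND had the highest level with siNC, at 17.0 ± 2.09 CPM per kb in AsiSI cells and 20.1 ± 1.33 in Flp-In cells (SD, n = 2 libraries here and below). In AsiSI siNC cells it was followed by FOSL2 (8.70 ± 0.551), FOSL1 (6.80 ± 0.683), JUN (6.13 ± 1.20) and JUNB (5.17 ± 0.757), with FOSL1 and JUN, and JUN and JUNB, overlapping. In Flp-In siNC cells it was followed by FOSL1 (10.7 ± 0.186), JUNB (7.01 ± 0.112), FOSL2 (5.66 ± 0.352) and JUN (3.12 ± 0.802), which did not overlap. JUNB had the highest level with siMePCE, at 13.2 ± 2.34 CPM per kb in AsiSI cells and 13.9 ± 1.83 in Flp-In cells. FOSL1 (7.15 ± 0.613) and FOSL2 (4.83 ± 0.0936) came next in AsiSI siMePCE cells, as did FOSL1 (9.16 ± 0.634) and FOSL2 (5.61 ± 0.173) in Flp-In siMePCE cells. In AsiSI siMePCE cells JUND (3.85 ± 0.552), JUN (3.82 ± 0.342) and FOS (3.12 ± 0.683) followed as overlapping neighbours. In Flp-In siMePCE cells JUND had 4.62 ± 0.205, and FOS (2.30 ± 0.206) and JUN (2.06 ± 0.0914) followed with separate ranges. FOSB, ATF3 and BATF3 filled the last 3 places in all 4 groups, with 0.0792 to 2.04 CPM per kb of interval.

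Per kb of the spliced GENCODE 29 transcript, members with long introns moved up. ATF3 then had the highest level in AsiSI siMePCE cells at 55.5 ± 7.51 CPM per kb, where its interval of 55444 bases had put it in place 7. FOSL1 came first on this scale in AsiSI siNC cells (34.7 ± 3.49), Flp-In siMePCE cells (46.8 ± 3.24) and Flp-In siNC cells (54.5 ± 0.951). FOSL2 came second in AsiSI siNC cells (32.2 ± 2.04), within the SD of FOSL1, and in Flp-In siNC cells (21.0 ± 1.31), where JUND (20.8 ± 1.38) differed from it by less than the SD. FOSB came last in all 4 groups on this scale. The order of levels between members thus differs with the length used, and these counts do not say which length fits. The fold changes of a gene do not depend on this choice of length.

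Other members of the basic leucine zipper class, 23 in all, were listed as partners and relatives. In AsiSI cells 6 of them were called higher and 9 lower, and 8 were not called, where 16.8% of all genes were higher and 21.3% lower. In Flp-In cells 7 were called higher and 5 lower, and 11 were not called, where 18.1% of all genes were higher and 22.7% lower. Their median log2 fold change was −0.23 in AsiSI cells and −0.04 in Flp-In cells. With genes kept at a mean of at least 1 CPM, the AsiSI counts were 10 higher and 5 lower. Without the first AsiSI siMePCE library 5 were lower in AsiSI cells, and without the second Flp-In siMePCE library 3 were lower in Flp-In cells. Of these genes 6 rose and 5 fell in both lines, and the share of all genes called alike in both was not computed. MAFF, a small MAF protein, rose by 1.51 in AsiSI cells and 1.55 in Flp-In cells, and DDIT3, the stress factor CHOP, rose by 0.96 and 1.35 in the same lines. CREB5 rose by 0.57 in AsiSI and 0.84 in Flp-In cells, and ATF2, which pairs with JUN-type proteins, by 0.47 and 0.55. Overlapping rows held 1.17 times the counts of MAFF and 8.20 times those of DDIT3.

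MAP kinases phosphorylate AP-1 proteins and the factors that switch on FOS and JUN. Of 27 listed genes of this pathway and of the serum response, 7 were called higher and 13 lower in AsiSI cells, where 16.8% of all genes were higher and 21.3% lower. In Flp-In cells 8 were called higher and 10 lower, where 18.1% of all genes were higher and 22.7% lower. Their median log2 fold change was −0.26 in AsiSI cells and −0.10 in Flp-In cells, and the AsiSI counts were 11 higher and 11 lower with genes kept at a mean of at least 1 CPM. In both lines 6 of the 27 rose and 9 fell, and 1 was called in opposite directions. The share of all genes called alike in both was not computed. The 4 named by the smallest adjusted p-values in both lines all fell, and so do not stand for the whole list. RPS6KA1, the kinase RSK1, fell by 1.16 in AsiSI cells and fell by 1.38 in Flp-In cells. MAP2K7, which activates the JUN N-terminal kinases, fell by 1.49 in AsiSI cells and fell by 1.11 in Flp-In cells. MAPK14, the p38 alpha kinase, fell by 0.80 in AsiSI cells and fell by 0.82 in Flp-In cells, and MRTFB, a cofactor of serum response factor, fell by 0.70 and fell by 1.05. Rows that overlap MAP2K7 and MRTFB held 0.656 and 0.518 times their counts. Dual-specificity phosphatases remove these phosphates, and DUSP4 was the 1 of 10 listed that had too few counts to test. Against the same shares of all genes, 2 of the 9 tested rose and 3 fell in AsiSI cells, and in Flp-In cells 2 rose and 4 fell, or 2 without the second Flp-In siMePCE library. DUSP5 rose by 0.80 in AsiSI cells and 1.06 in Flp-In cells, and DUSP16 by 0.48 and 0.57. DUSP7 fell by 1.42 in AsiSI cells and fell by 0.72 in Flp-In cells, and DUSP9 fell by 1.21 and fell by 1.47.

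Genes described in textbooks as AP-1 targets moved in both directions, in equal numbers with the filter used here. Of 29 listed, 11 were called higher and 11 lower in AsiSI cells, where 16.8% of all genes were higher and 21.3% lower. In Flp-In cells 11 were called higher and 11 lower, where 18.1% of all genes were higher and 22.7% lower. Their median log2 fold change was −0.04 in AsiSI cells and 0.01 in Flp-In cells. In both lines 9 rose and 9 fell, and the share of all genes called alike in both lines was not computed. With genes kept at a mean of at least 1 CPM, 12 targets were higher and 9 lower in AsiSI cells. The counts in Flp-In cells were then 12 higher and 10 lower. MMP9, a secreted protease, had 15.6 and 12.0 CPM in AsiSI siMePCE libraries, against 2.48 and 3.46 CPM in AsiSI siNC libraries. It had 81.8 and 71.8 CPM in Flp-In siMePCE libraries, against 5.46 and 6.13 CPM in Flp-In siNC libraries. MMP9 rose by 2.21 in AsiSI cells (SE 0.165) and 3.73 in Flp-In cells (SE 0.158) on the log2 scale. EREG, the growth factor epiregulin, fell by 2.04 in AsiSI cells and fell by 2.30 in Flp-In cells, and an overlapping row held 0.808 times its counts. CCND1, which encodes cyclin D1, fell by 1.30 in AsiSI cells and fell by 0.80 in Flp-In cells. The adjusted p-values of these 3 genes were at most 1.405e-06 in both lines by edgeR's quasi-likelihood test.

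**Figure D4:**
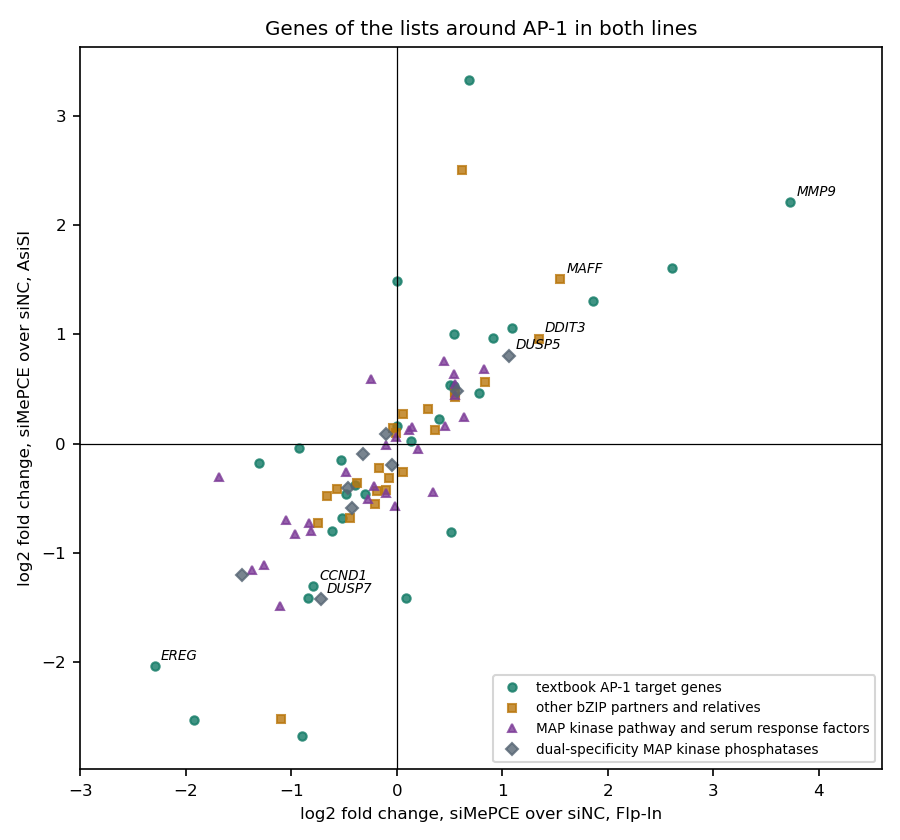
Log2 fold change of siMePCE over siNC in AsiSI cells (vertical axis) against the same in Flp-In cells (horizontal axis) for each tested gene of the 4 lists, with 7 genes labelled by name. MMP9 and MAFF lie above 1 in both lines and EREG below −2 in both.

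The same targets also differed between the lines. In AsiSI relative to Flp-In cells 17 of the 29 were called higher and 3 lower under siNC, where 14.4% of all genes were higher and 15.1% lower, and their median log2 fold change was 0.61, against 0.01 over all genes. Under siMePCE 15 were called higher and 7 lower, where 15.6% of all genes were higher and 15.9% lower. The median of the targets was then 0.37, against −0.01 over all genes. The list was chosen with earlier results of these data known and was not tested as a set.

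Genes whose pattern over the 8 libraries was most like that of a member were sought among 13478 or 13479 named genes with a mean of at least 5 CPM, by the root mean square (RMS) difference of centred log2 CPM. For JUND the nearest were PYCR3 (RMS 0.0967) and IRAK1 (0.114), against a median of 1.03 over all candidates. The nearest of so many candidates lie below that median by selection. How near the closest genes usually lie for other genes was not computed. For JUNB they were ACTN2 (0.110) and NFKB1 (0.128), and for JUN they were YDJC (0.116) and PRKAR1B (0.146). The nearest to FOS were PNRC1 (0.185) and SNCAIP (0.225), and to FOSB they were PTGER3 (0.164) and DCDC2C (0.218). DCDC2C (0.227) and MIR4422HG (0.234) were nearest to ATF3. Within the family, FOS and JUNB were each other's nearest member (RMS 0.257), as were FOSB and ATF3 (0.237). JUND was far from every other member, the nearest being FOSL2 at 0.908. Overlapping rows held 7.60 times the counts of PTGER3 and 6.66 times those of PRKAR1B. These likenesses rest on 8 libraries in 4 groups and describe patterns of level alone.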

How the data were processed

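Total RNA was sequenced in 8 libraries made with a directional kit after ribosomal RNA removal, per the labels' protocols. Trim Galore, FastQC, STAR, SAMtools, featureCounts and hg19 are named in the submitters' processing notes, and their versions are not given in the sources used here. The authors deposited raw counts per gene. Each gene's listed length equals its whole interval in all 80311 rows, so introns were counted. A nested row never exceeded its host in 3520 of 3520 same-strand and 6889 of 6889 opposite-strand pairs. Reads were thus apparently counted for every overlapping gene on either strand.

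Symbols were matched for 50.8% of rows, which held 85.2% of counts. Members, lists and rules were chosen with earlier results of these data known. With TMM scaling, the 43321 genes passing filterByExpr were fitted with a mean per group in edgeR 4.0.16 (R 4.3.3) by the quasi-likelihood test, with Benjamini-Hochberg adjustment over all genes. The procedure was tested on simulated data in which far fewer genes changed than were called here. SEs came from log2 fold change and F. Up to 4 genes of a list are named, those called in the same direction in both lines with the smallest adjusted p; 1 target gene that qualified is not reported here. Overlapping rows are named from 0.1 times the member's counts. For genes other than members only larger overlaps are named. This leaves out, for example, rows with 0.313 times the counts of MMP9, 0.404 of CCND1, 0.15 of MAPK14 and 0.121 of DUSP16. Promoters are from RefSeq (GRCh38.p14) and spliced lengths from GENCODE 29. Replicates differed by more than sampling noise (chi-square per degree of freedom 4.51 to 11.3). Alternatives were DESeq2 1.42.0 size factors and test, 2 filters, left-out RNA classes, fewer libraries and a replicate block.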

Additional observations from a re-analysis of the deposited data

Results flagged for a closer look

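FOSL2 stands out because the test of the difference between the lines was passed by this member alone of the 9. The difference of its log2 fold changes, AsiSI minus Flp-In, was −0.84 (adjusted p = 0.0003117, edgeR's quasi-likelihood test). It had 118 and 122 CPM in AsiSI siMePCE libraries, against 207 and 226 CPM in AsiSI siNC libraries, and the Flp-In groups overlapped at 136 and 142 CPM with siMePCE, against 134 and 147 CPM with siNC. The 3 groups other than AsiSI siNC thus lay at 118 to 147 CPM. The difference was called in all 14 alternatives that could be run, at −0.90 to −0.76. Line and 4-OHT cannot be told apart here.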

How the results depend on the processing

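Of 666 values of the members under alternatives, 643 stayed on their side of the threshold, 17 gained a call and 6 lost one. Among values called with or without the change, 0 reversed direction. Values called in neither fit could change sign, as for FOSL2 with siMePCE in Flp-In cells (−0.09 to 0.07). Leaving out 1 library at a time, the number of members called lower with siMePCE in Flp-In cells was 1 to 3 (2 with all libraries). It was 1 to 3 in AsiSI relative to Flp-In cells under siNC and 1 to 3 under siMePCE (2 each with all libraries). Members called higher in the difference between the lines were 0 to 1 (0 with all libraries). The cause was not tested. Over all genes, calls in the difference were 473 to 1027 higher and 185 to 715 lower with a library left out, against 1088 and 720, and reached 1607 and 1305 under other alternatives.

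Libraries of equal replicate number deviated together only weakly (correlations of 0.043 to 0.155), so the numbers are not taken as pairs. With a replicate block 4 further member values were called: FOSL1 with siMePCE in Flp-In cells (−0.22, adjusted p = 0.0494), BATF3 between lines under siNC (−0.44, adjusted p = 0.0461), and FOS (0.43, adjusted p = 0.0348) and FOSL2 (−0.21, adjusted p = 0.0177) between lines under siMePCE. The block ended no call of a member. FOSB had 18 to 283 counts and BATF3 190 to 433 counts in a library, which limits the precision of both.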
